A study of Mus musculus with 24 samples.

Results

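The genes described here are 36 collagens, stromal matrix genes and fibroblast genes, chosen by name, and their levels were followed in mouse macrophages with or without Tet2, whose product oxidises methylated cytosines in DNA. All 36 symbols were found among the 23307 gene symbols of both expression tables. Bone marrow-derived macrophages (BMDM) came from C57BL/6 marrow labelled Tet2 knockout or wild type, grown for 7 days in medium with 30% L929-conditioned medium and 10 ng/ml M-CSF, and then sampled at 0, 10 and 24 h of exposure to interleukin 4 (IL4) at 20 ng/ml. Each of these 6 groups had 2 libraries, made after depletion of ribosomal RNA, and no age is given for the marrow donors. The labels number these libraries but do not say whether they, or the times of a genotype, came from separate mice or cultures. Tumour-associated macrophages (TAM) were CD11b+F4/80+ cells, sorted after 4 weeks from subcutaneous YUMM1.7 melanomas, a transplantable mouse melanoma line, in male C57BL/6J mice aged 6 to 8 weeks. The knockout TAM came from LysMcre +/wt, Tet2 fl/fl mice and the wild-type TAM from LysMcre wt/wt, Tet2 fl/fl mice, so both carried the floxed allele, and Cre driven by LysM acts in myeloid cells and leaves stromal cells of the host unrecombined. There were 4 libraries of polyadenylated RNA per TAM genotype, numbered 3 to 6 in knockout and 1, 2, 7 and 8 in wild type, and the labels do not say whether each is 1 animal.

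Collagens are long triple-helical proteins that fibroblasts and related mesenchymal cells secrete into the matrix. Their chains are folded in the endoplasmic reticulum with the help of the chaperone encoded by Serpinh1, are trimmed outside the cell and are cross-linked by lysyl oxidases. Small proteoglycans such as decorin and glycoproteins such as Sparc and periostin bind the fibrils, while Ctgf, Cyr61 and gremlin 1 act on growth factor signalling and adhesion. Macrophages are known chiefly for degrading and remodelling this matrix, and most of these genes are used in single-cell work as marks of fibroblasts.

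Levels are FPKM, fragment counts scaled by transcript length and library total, which the authors deposited. Differences are on the scale of log2(FPKM + 1), which understates the change of low genes. They are given with the standard error and with limma's p after Benjamini and Hochberg's adjustment over all genes tested, with a threshold of 0.05. Testing required 1 FPKM or more in at least 2 BMDM libraries or 4 TAM libraries, which left 21 of the 36 genes in BMDM and 19 in TAM. In BMDM, 13 of the 21 passed only through the knockout libraries, so the share of tested genes that were called carries no weight of its own, and the comparisons below also give values for the 15 genes under the filter.

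The FPKM values of a library summed to between 365118 and 557183 in BMDM and between 337994 and 464812 in TAM. Judged by the step between the lowest values, depth was 0.877 to 1.39 times that of wild-type 0 h replicate 1 in BMDM, and in TAM 0.688 to 1 times that of wild-type library 1, apart from knockout library 5 at 0.115. Tet2 itself did not separate the labels. It had 4.02 and 4.48 FPKM in untreated knockout BMDM against 4.11 and 5.91 FPKM in wild type, and the average difference over times was -0.06 ± 0.08 (limma, adjusted p = 0.680). In TAM it had 19.0, 15.7, 16.9 and 14.4 FPKM in knockout libraries against 12.6, 15.8, 16.1 and 7.75 FPKM in wild-type libraries. Which exons the BMDM allele lacks is not given in the sources used here. Knockout and wild type below are the groups as labelled. The macrophage markers were abundant in every library, with Csf1r, the M-CSF receptor gene, at 423 to 539.6 FPKM in knockout BMDM and 433 to 590.3 FPKM in wild-type BMDM.

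Promoter sequences were available from RefSeq (GRCm38.p6) for 22 of the 36 genes, and 3 are shown because their genes were among those that moved together with genotype and IL4 below. Each runs 5′ to 3′ over the 250 bases before the gene's start, and capitals mark a searched motif. In Col1a2 (chr6:4505368-4505617, plus strand) they mark CCAAT, the element read by NF-Y. In Cyr61 (chr3:145649986-145650235, minus strand) they mark CATTCC, the core read by TEAD factors, and then TATAAA. In Acta2 (chr19:34255374-34255623, minus strand) they mark CATTCC on the opposite strand, printed as its complement.
Col1a2: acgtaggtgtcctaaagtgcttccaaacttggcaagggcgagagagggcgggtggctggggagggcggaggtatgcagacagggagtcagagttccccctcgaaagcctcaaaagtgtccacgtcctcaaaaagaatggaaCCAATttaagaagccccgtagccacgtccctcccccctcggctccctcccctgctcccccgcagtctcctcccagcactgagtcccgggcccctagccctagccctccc
Cyr61: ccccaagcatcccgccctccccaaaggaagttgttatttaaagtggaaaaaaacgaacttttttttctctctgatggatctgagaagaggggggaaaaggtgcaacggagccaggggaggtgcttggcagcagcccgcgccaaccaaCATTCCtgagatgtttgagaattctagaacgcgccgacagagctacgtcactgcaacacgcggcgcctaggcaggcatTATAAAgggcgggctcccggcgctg
Acta2: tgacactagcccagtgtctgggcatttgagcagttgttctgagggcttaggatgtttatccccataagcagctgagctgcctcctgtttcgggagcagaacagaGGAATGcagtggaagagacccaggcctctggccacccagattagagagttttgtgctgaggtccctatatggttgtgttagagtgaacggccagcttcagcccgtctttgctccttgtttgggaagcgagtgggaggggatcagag
On both strands, CCAAT was in the promoters of 6 of the 22 genes and in 33.8% of all 32851 promoters of that length. TATAAA was in 6 of the 22 and 12.4% of all, and CATTCC in 5 of the 22 and 12.6% of all. The 22 genes had 26 promoters, and a gene was counted if any of its promoters held the motif. The background is a share of single promoters, so it is not like for like. The CArG box, the element of serum response factor, was searched only in its strict form, CC, then 6 bases of A or T, then GG. That form was in 0 of the 22 and 1.47% of all. Forms that differ by a base, such as ccctatatgg and ccttgtttgg in the Acta2 sequence above, were not counted. These counts describe letters in a window and say nothing about binding.

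In BMDM the matrix genes stood higher in the knockout at every time, and they did so from fibrillar collagens to contractile genes. Among the 21 tested genes 18 were higher and 0 lower in untreated knockout cells (limma, adjusted p under 0.05), where 1.89% of all tested genes were called higher and 0.809% lower. After 10 h of IL4, 20 were higher and 0 lower (background 1.75% higher and 1.09% lower). After 24 h, 17 were higher and 1, Thbs1, lower (background 5.29% higher and 2.14% lower), and averaged over the times 20 were higher and 0 lower (background 7.06% higher and 2.88% lower). The 24 h count rested on the spread shared with the other times and on single libraries. It was 3 when only the 4 libraries of that time were fitted, 8 without knockout 24 h replicate 1, 8 without knockout 24 h replicate 2 and 11 without wild-type 24 h replicate 2. In bulk RNA, more cells of a type and more RNA per cell cannot be told apart.

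Counted over all 36 genes without any filter, both knockout libraries exceeded both wild-type libraries for 33 genes untreated, 34 after 10 h and 32 after 24 h. The same held for 22.04%, 23.2% and 24.5% of all genes above 0 in any library. At all 3 times together it held for 32 of the 36, against 5.18% of all genes, and the exceptions were Thbs1, Thbs2, Pdgfrb and Thy1. The genes were chosen with earlier results of these data known. Setting them beside the background, here and in the other comparisons, is therefore not an independent test. The 3 times of a genotype may share a marrow preparation, so they are not known to be independent. The median ratio of mean FPKM, knockout over wild type, was 3.86 untreated, 4.62 after 10 h and 4.18 after 24 h. Over all tested genes it was 1.05, 1.01 and 1.03. A ratio of at least 3 was reached by 28, 28 and 26 of the genes, compared with 0.821%, 0.725% and 0.553% of all tested genes. The ratios of the listed genes include those under the filter (35, 35 and 36 genes had a ratio). The tested genes exclude such low genes, so these medians and shares are not like for like. Without the filter, limma called 27, 28 and 18 of the 36 higher (background 1.82%, 1.69% and 2.89%), and 32 on average over the times (background 5.74%), the remaining 4 being the same exceptions.

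**Figure D1:**
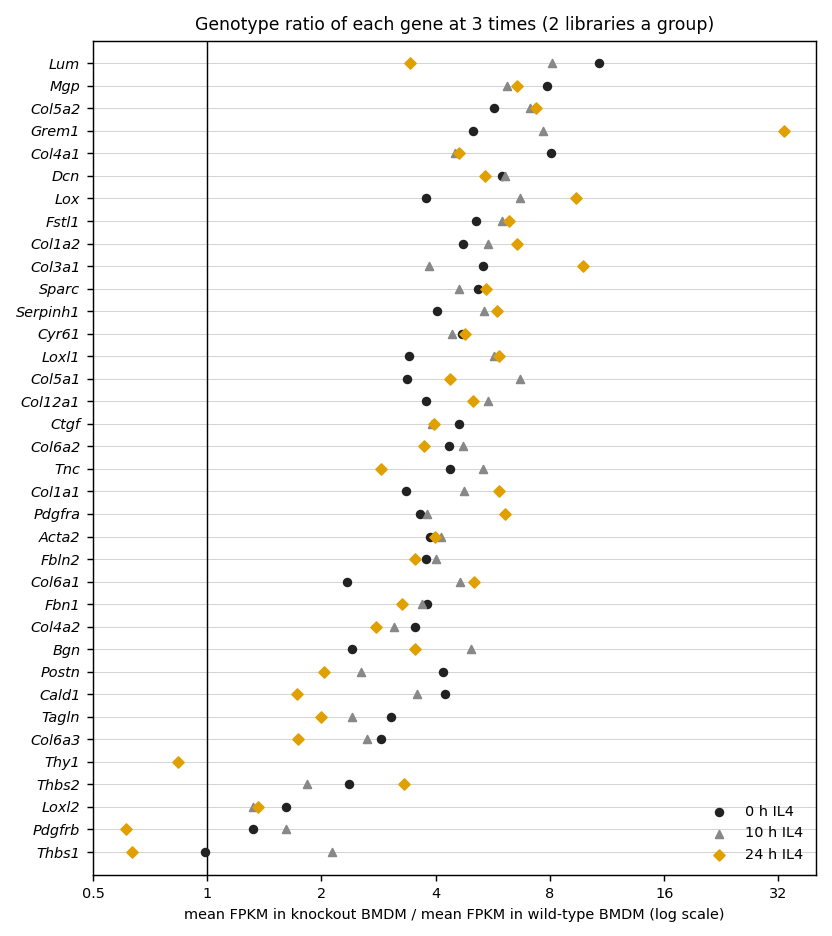
Ratio of the mean FPKM in knockout BMDM to the mean in wild-type BMDM for each of the 36 genes, on a log axis, at 0, 10 and 24 h of IL4 (2 libraries a group). Genes are ordered by the ratio over all times, from 7.11 for Lum at the top to 1.02 for Thbs1 at the bottom, and Thy1 has a point only at 24 h because it was listed at 0 in both wild-type libraries at 0 and 10 h.

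Fibrillar collagens build the tensile fibres of skin, tendon and scar. Both that were tested were higher in the knockout at each time (background 1.89%, 1.75% and 5.29% higher), though Col5a2 passed the filter only through the knockout libraries. Col1a2, the second chain of type I collagen, had 11.9 and 12.04 FPKM in untreated knockout BMDM against 2.51 and 2.55 FPKM in wild type, 9.42 and 9.44 in knockout against 1.84 and 1.59 in wild type after 10 h, and 4.03 and 4.21 in knockout against 0.483 and 0.776 in wild type after 24 h. The groups lay far apart at each time, and the untreated replicates of a genotype nearly coincided. Averaged over times the difference was 1.82 ± 0.06 (limma, adjusted p = 1.2e-07), and the FPKM ratio was 4.72 untreated and 6.55 after 24 h. Col5a2, a chain of the type V collagen that nucleates fibrils, had 3.53 and 3.29 FPKM in untreated knockout BMDM against 0.679 and 0.515 FPKM in wild type, 3.27 and 3.29 in knockout against 0.518 and 0.404 in wild type after 10 h, and 1.20 and 1.11 in knockout against 0.145 and 0.171 in wild type after 24 h. Again no knockout library came near a wild-type one, and the average difference was 1.31 ± 0.05 (limma, adjusted p = 2.7e-07).

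The other 3 fibrillar genes were low in both genotypes. Col1a1, the partner chain of Col1a2, had 0.983 and 1.27 FPKM in untreated knockout BMDM against 0.258 and 0.416 FPKM in wild type. Col1a2 was 9.49 to 12.1 times Col1a1 in the 6 knockout BMDM libraries and 6.13 to 12.9 times in the 6 wild-type ones, on this per-length scale, although type I collagen needs both chains. Col3a1, the type III chain, had 0.744 and 0.644 FPKM in untreated knockout BMDM against 0.147 and 0.114 FPKM in wild type. Col5a1 had 0.520 and 0.393 FPKM in knockout against 0.166 and 0.105 FPKM in wild type. All 3 kept the knockout above the wild type at all 3 times, with ratios over the times of 4.05, 4.99 and 4.42.

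The 6 other collagens were mostly under 1 FPKM. Col6a1, a chain of the beaded type VI filaments, was the 1 tested, and had 0.877 and 0.515 FPKM in untreated knockout BMDM against 0.337 and 0.257 FPKM in wild type, 1.05 and 1.38 in knockout against 0.304 and 0.220 in wild type after 10 h, and 0.723 and 0.532 in knockout against 0.0547 and 0.194 in wild type after 24 h. The knockout was above the wild type at every time, but the untreated difference of 0.38 ± 0.13 did not pass (limma, adjusted p = 0.217), while the average of 0.57 ± 0.08 did (adjusted p = 9.9e-04). Its partners Col6a2 and Col6a3, the basement membrane pair Col4a1 and Col4a2, and the fibril-associated Col12a1 never exceeded 0.709 FPKM in knockout or 0.174 FPKM in wild-type BMDM. Their ratios over all times ran between 2.51 for Col6a3 and 6.13 for Col4a1.

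**Figure D2:**
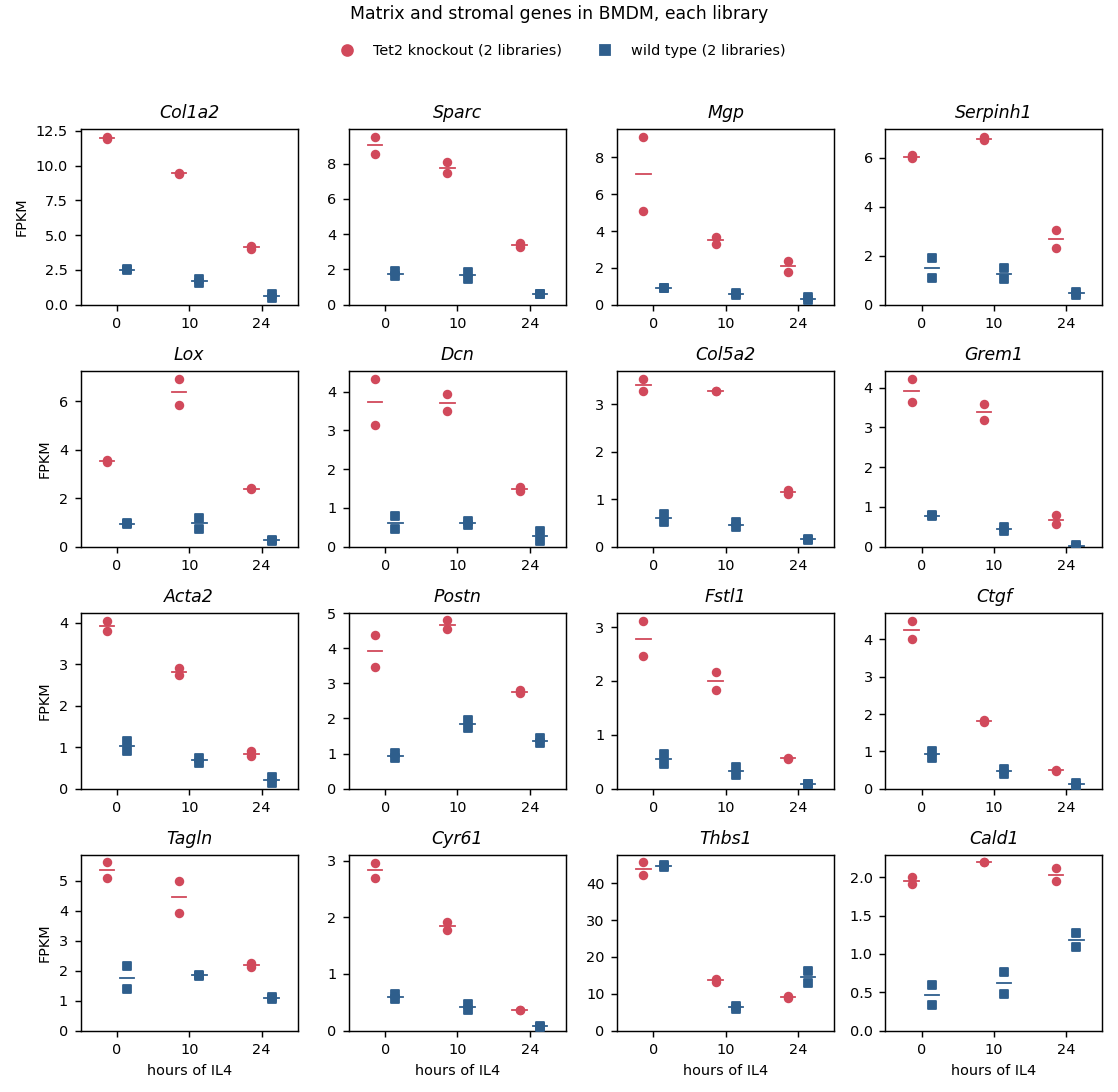
FPKM of 16 genes in each BMDM library at 0, 10 and 24 h of IL4, with 2 knockout (circles, left) and 2 wild-type libraries (squares, right) per time and a short line at their mean, each panel on its own linear axis from 0. Knockout points lie above wild-type points at each time in the panels other than Thbs1, where they overlap untreated, lie above at 10 h and lie below at 24 h.

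Among the 12 matrix glycoproteins and proteoglycans, 8 of the 9 tested were higher in the untreated knockout (background 1.89% higher). Of these, Fbln2, Dcn, Bgn, Mgp, Fstl1 and Tnc passed the filter only through the knockout libraries. Sparc, a collagen-binding glycoprotein of remodelling tissue, had 9.51 and 8.55 FPKM in untreated knockout BMDM against 1.89 and 1.61 FPKM in wild type, 8.07 and 7.45 in knockout against 1.88 and 1.48 in wild type after 10 h, and 3.48 and 3.28 in knockout against 0.617 and 0.629 in wild type after 24 h. It was close to 5 times higher throughout, with ratios of 5.16, 4.62 and 5.43 and an average difference of 1.67 ± 0.06 (limma, adjusted p = 1.2e-07). Mgp, the matrix Gla protein that inhibits calcification, had 9.09 and 5.10 FPKM in untreated knockout BMDM against 0.907 and 0.896 FPKM in wild type, 3.69 and 3.32 in knockout against 0.618 and 0.520 in wild type after 10 h, and 1.79 and 2.39 in knockout against 0.403 and 0.238 in wild type after 24 h. The untreated knockout replicates differed widely from each other, yet both stood above the wild type, and the average difference was 1.60 ± 0.11 (adjusted p = 1.1e-05).

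Dcn encodes decorin, a small proteoglycan that coats collagen fibrils. It had 4.32 and 3.13 FPKM in untreated knockout BMDM against 0.466 and 0.779 FPKM in wild type, 3.49 and 3.94 in knockout against 0.670 and 0.554 in wild type after 10 h, and 1.55 and 1.43 in knockout against 0.404 and 0.148 in wild type after 24 h. Its groups were apart at each time and the average difference was 1.35 ± 0.09 (limma, adjusted p = 6.4e-06). Fstl1, a secreted follistatin-like glycoprotein, had 3.11 and 2.46 FPKM in untreated knockout BMDM against 0.636 and 0.455 FPKM in wild type, 1.83 and 2.17 in knockout against 0.409 and 0.259 in wild type after 10 h, and 0.554 and 0.575 in knockout against 0.0911 and 0.0896 in wild type after 24 h. No libraries overlapped, and the average difference was 0.99 ± 0.07 (adjusted p = 9.5e-06).

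Postn, the gene of periostin, a cell-adhesion protein of the matrix, had 4.39 and 3.48 FPKM in untreated knockout BMDM against 1.02 and 0.863 FPKM in wild type, 4.54 and 4.81 in knockout against 1.96 and 1.72 in wild type after 10 h, and 2.72 and 2.80 in knockout against 1.43 and 1.29 in wild type after 24 h. It was higher in the knockout at each time, by an average of 1.00 ± 0.06 (limma, adjusted p = 4.9e-06), and its ratio was 4.18 untreated, 2.54 after 10 h and 2.03 after 24 h. The remaining tested matrix genes were the fibulin gene Fbln2, the biglycan gene Bgn and the tenascin gene Tnc, whose average differences were 0.83 ± 0.06, 0.69 ± 0.07 and 0.71 ± 0.05 (adjusted p at most 1.8e-04). Under the filter, the fibrillin gene Fbn1 had up to 0.740 FPKM in knockout and up to 0.237 FPKM in wild-type BMDM. Lum, the gene of lumican, had up to 0.483 FPKM in knockout and up to 0.0657 FPKM in wild type.

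Thbs1, the gene of thrombospondin 1, which activates latent TGF beta and inhibits angiogenesis, was the most abundant gene of the group and the one that stood apart. It had 45.7 and 42.3 FPKM in untreated knockout BMDM against 44.5 and 45.02 FPKM in wild type, 13.3 and 13.9 in knockout against 5.91 and 6.80 in wild type after 10 h, and 9.47 and 8.97 in knockout against 12.9 and 16.2 in wild type after 24 h. The genotypes overlapped untreated, the knockout was higher at 10 h and it was lower at 24 h. The differences were -0.02 ± 0.11 (limma, adjusted p = 0.940), 0.99 ± 0.11 (adjusted p = 0.00101) and -0.60 ± 0.11 (adjusted p = 0.0144). The 24 h call was lost when only the libraries compared were fitted (limma, -0.60, adjusted p = 0.166). It was also lost without knockout 24 h replicate 1 (-0.63) or replicate 2 (-0.56), each of which left 1 knockout library at that time. Thbs2, its relative, stayed at or under 0.278 FPKM in knockout and 0.121 FPKM in wild type.

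Collagen processing was led by Serpinh1, the collagen chaperone gene. It had 6.11 and 5.99 FPKM in untreated knockout BMDM against 1.90 and 1.09 FPKM in wild type, 6.85 and 6.73 in knockout against 1.51 and 1.03 in wild type after 10 h, and 3.04 and 2.30 in knockout against 0.384 and 0.536 in wild type after 24 h. Both knockout libraries were above both wild-type ones at each time, by an average of 1.54 ± 0.09 (limma, adjusted p = 4.8e-06). Lox, the gene of lysyl oxidase, which cross-links collagen and elastin, had 3.51 and 3.58 FPKM in untreated knockout BMDM against 0.916 and 0.966 FPKM in wild type, 5.86 and 6.91 in knockout against 1.17 and 0.746 in wild type after 10 h, and 2.41 and 2.36 in knockout against 0.277 and 0.231 in wild type after 24 h. Its ratio was 3.77, 6.66 and 9.37 at the 3 times, and the average difference was 1.53 ± 0.07 (adjusted p = 3.9e-07).

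The relative Loxl2 was the weakest of the tested genes that were higher on average, with 1.48 to 2.22 FPKM in the 6 knockout libraries and 0.932 to 1.70 FPKM in the 6 wild-type ones. Its difference of 0.43 ± 0.11 untreated did not pass (limma, adjusted p = 0.0858), and its average of 0.32 ± 0.07 did (adjusted p = 0.0123). Loxl1, which acts in elastic fibres, was at or under 0.361 FPKM in knockout and 0.140 FPKM in wild type.

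The 3 secreted regulators were all higher in the untreated knockout (background 1.89% higher), and all 3 passed the filter only through the knockout libraries. Grem1, the gene of gremlin 1, which blocks bone morphogenetic proteins, had 4.21 and 3.63 FPKM in untreated knockout BMDM against 0.807 and 0.761 FPKM in wild type, 3.58 and 3.18 in knockout against 0.485 and 0.396 in wild type after 10 h, and 0.788 and 0.559 in knockout against 0 and 0.0408 in wild type after 24 h. At 24 h it was listed at or near 0 in wild type and remained detectable in the knockout, and the average difference was 1.26 ± 0.06 (limma, adjusted p = 9.7e-07). Ctgf, a matricellular protein gene and a usual readout of YAP and TEAD, had 4.00 and 4.49 FPKM in untreated knockout BMDM against 1.02 and 0.826 FPKM in wild type, 1.83 and 1.78 in knockout against 0.522 and 0.400 in wild type after 10 h, and 0.496 and 0.479 in knockout against 0.0828 and 0.163 in wild type after 24 h. Its average difference was 0.93 ± 0.06 (adjusted p = 4.9e-06), with groups apart at each time. Cyr61, of the same protein family, had 2.96 and 2.70 FPKM in untreated knockout BMDM against 0.561 and 0.641 FPKM in wild type, 1.92 and 1.78 in knockout against 0.472 and 0.369 in wild type after 10 h, and 0.368 and 0.357 in knockout against 0.0698 and 0.0824 in wild type after 24 h. It differed by 0.87 ± 0.05 on average (adjusted p = 4.9e-06), again with no overlap.

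Contractile genes were higher as well, and the receptors that mark fibroblasts had levels at the bottom of the range in both genotypes. Acta2, the smooth muscle actin gene that marks myofibroblasts, had 3.81 and 4.04 FPKM in untreated knockout BMDM against 0.897 and 1.14 FPKM in wild type, 2.91 and 2.73 in knockout against 0.623 and 0.743 in wild type after 10 h, and 0.903 and 0.784 in knockout against 0.281 and 0.142 in wild type after 24 h. The groups did not overlap at any time, and the average difference was 1.03 ± 0.06 (limma, adjusted p = 3.4e-06). Tagln, the gene of an actin-binding protein of smooth muscle, had 5.09 and 5.64 FPKM in untreated knockout BMDM against 2.15 and 1.39 FPKM in wild type, 3.92 and 5.00 in knockout against 1.87 and 1.83 in wild type after 10 h, and 2.12 and 2.25 in knockout against 1.12 and 1.07 in wild type after 24 h. It was higher by 0.92 ± 0.08 on average (adjusted p = 4.7e-05). Cald1, the caldesmon gene, had 1.91 and 2.00 FPKM in untreated knockout BMDM against 0.599 and 0.328 FPKM in wild type, 2.20 and 2.20 in knockout against 0.760 and 0.473 in wild type after 10 h, and 1.95 and 2.12 in knockout against 1.28 and 1.09 in wild type after 24 h. Its groups were apart at each time too, with an average difference of 0.83 ± 0.07 (adjusted p = 3.7e-05).

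Of the receptors, Pdgfra, the PDGF receptor of fibroblasts, had 0.276 and 0.164 FPKM in untreated knockout BMDM against 0.0524 and 0.0690 FPKM in wild type. Its knockout libraries were above its wild-type ones at all 3 times, with ratios of mean FPKM of 3.63, 3.80 and 6.10. Pdgfrb, that of pericytes and fibroblasts, had 0.136 and 0.0840 FPKM in knockout against 0.0672 and 0.0994 FPKM in wild type, which overlap. Thy1, a surface antigen of many fibroblasts, was listed at 0 and 0.0291 FPKM in knockout and at 0 in both wild-type libraries. With all 36 genes tested, Pdgfra was called higher on average over the times, and neither Pdgfrb nor Thy1 was called at any time.

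Marker lists of other cell types moved beside these genes. The 14 further mesenchymal genes summed to 8.49 and 6.84 FPKM in untreated knockout BMDM against 2.42 and 2.37 FPKM in wild type, and to 3.11 and 2.50 in knockout against 1.17 and 1.38 in wild type after 24 h. All 3 that were tested, the cadherin gene Cdh11, the gelatinase gene Mmp2 and the podoplanin gene Pdpn, were higher on average, by 0.71 ± 0.06, 0.58 ± 0.06 and 0.65 ± 0.10 (limma, adjusted p at most 0.00198, background 7.06% higher), while Twist2 was listed at 0 in all 12 BMDM libraries. The 10 smooth muscle and pericyte genes summed to 4.29 and 2.78 FPKM in untreated knockout against 0.705 and 0.538 FPKM in wild type. Both tested, Tpm2 and Myl9, were higher. These 2 and the 3 mesenchymal genes passed the filter only through the knockout libraries, so being called carries no weight of its own. The defining smooth muscle gene Myh11 never exceeded 0.0194 FPKM. The 8 endothelial genes summed to 2.06 and 2.01 FPKM in untreated knockout against 1.08 and 1.24 FPKM in wild type, and Pecam1 was higher on average by 0.40 ± 0.06 (adjusted p = 0.00269). The part of other cells in the genotype difference was not tested.

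Beside them, 9 macrophage markers summed to 16391 and 15555 FPKM in untreated knockout BMDM against 19978 and 15543 FPKM in wild type. After 24 h they summed to 7861 and 7903 FPKM in knockout against 10218 and 11818 FPKM in wild type. On average 3 of the 9 were lower in the knockout, namely the Fc receptor gene Fcgr1 by -0.56 ± 0.08, the integrin gene Itgam by -0.40 ± 0.06 and Cd14 by -0.37 ± 0.07 (limma, adjusted p at most 0.00895, background 2.88% lower). For scale, the 36 matrix genes without Thbs1 summed to 92.3 and 83.9 FPKM in untreated knockout against 21.6 and 19.99 FPKM in wild type.

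Other genes of matrix production moved in part. Of 37 further matrix genes, 9 were tested and 4 were higher and 0 lower on average (background 7.06% higher and 2.88% lower), led by Col18a1 and Igfbp7 (both by 0.80, limma, adjusted p at most 1.5e-04). Of 18 listed collagen-modifying genes, 13 were tested and 5 were higher and 0 lower against the same background, among them the chaperone gene Fkbp10 by 0.59 ± 0.06 and the prolyl hydroxylase gene P4ha2 by 0.56 ± 0.07 (adjusted p at most 9.7e-04). Ccdc80 and Igfbp7, among those 4, and Pcolce and Fkbp10, among those 5, passed the filter only through the knockout libraries as well. For them, being called carries no weight of its own. Of 16 TGF beta pathway genes 9 were tested. Among them the receptor gene Tgfbr1 was higher by 0.24 ± 0.05 (limma, adjusted p = 0.0166) and Tgfbr2 was lower by -0.28 ± 0.06 (adjusted p = 0.0187). The ligand gene Tgfb1 had 6.30 and 8.61 FPKM in untreated knockout BMDM against 8.84 and 17.9 FPKM in wild type. The untreated difference of -0.70 ± 0.32 did not pass (limma, adjusted p = 0.355), and the average over times was -0.05 ± 0.19 (adjusted p = 0.905).

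Most of these genes were lower after 24 h of IL4 than untreated in both genotypes. All untreated libraries were taken at 0 h, and no untreated cells were sampled at the later times. IL4 and the added time in culture therefore cannot be told apart, and the part of each was not tested. Changes and responses to IL4, here and below, are differences from the 0 h libraries. In the knockout 18 of the 21 tested fell and 0 rose at 24 h against untreated (background 17.1% lower and 26.5% higher). In the wild type 15 fell and 2, Cald1 and Postn, rose (background 20.3% lower and 29.7% higher). Over the genes with a value above 0 untreated, the median ratio of mean FPKM, 24 h over untreated, was 0.369 in knockout and 0.295 in wild type, where all tested genes had 1.06 and 1.05. The medians of the listed genes include those under the filter, and the medians of the tested genes do not. Both 24 h libraries lay below both untreated ones for 33 of the 36 genes in knockout and 28 of the 36 in wild type, against 28.1% and 23.5% of all genes.

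At 10 h the change was smaller and mixed. In the knockout 8 fell and 2, Lox and Col6a1, rose (background 14.6% lower and 24.2% higher). In the wild type 6 fell and 1, Postn, rose (background 14.2% lower and 28.2% higher). The median ratio of 10 h over untreated was 0.861 in knockout and 0.709 in wild type. These counts were sensitive to single libraries. The knockout count of 10 became 6 without knockout 0 h replicate 1 and 5 without knockout 10 h replicate 2, and the wild-type count of 7 became 2 without wild-type 10 h replicate 2.

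**Figure D3:**
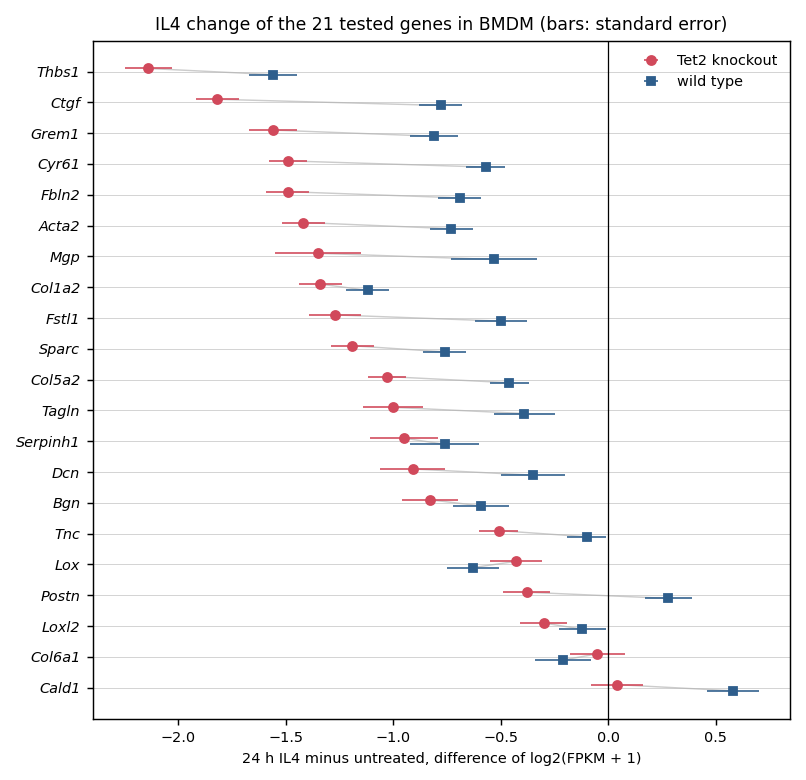
Difference of log2(FPKM + 1) between 24 h of IL4 and untreated BMDM for the 21 tested genes, in knockout (circles) and wild type (squares), with standard errors from limma (2 libraries a group). The knockout change lies between -2.14 for Thbs1 and 0.04 for Cald1, and the wild-type change between -1.56 for Thbs1 and 0.58 for Cald1.

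Thbs1 already had large changes at 10 h, of -1.63 ± 0.11 in knockout and -2.64 ± 0.11 in wild type (limma, adjusted p at most 2.5e-06). After 24 h its changes were -2.14 ± 0.11 in knockout and -1.56 ± 0.11 in wild type (adjusted p at most 2.2e-06), and both wild-type libraries at 24 h were above both at 10 h. On the log2(FPKM + 1) scale these 24 h changes were the largest of the tested genes, but not as ratios of mean FPKM, 24 h over untreated, where Thbs1 had 0.209 in knockout and 0.325 in wild type and Ctgf had 0.115 in knockout and 0.133 in wild type. The test of the difference between genotypes in the 10 h response gave 1.01 ± 0.16 (adjusted p = 0.0764). That p was 0.0204 after median-of-ratios scaling, 0.0335 after quantile normalization and 0.0407 with only the libraries compared. Under the other settings it ran between 0.0545 and 0.443, the highest being without knockout 0 h replicate 2.

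Lox and the type VI chain Col6a1 were the exceptions at 10 h in the knockout. Lox rose by 0.70 ± 0.12 there (limma, adjusted p = 8.7e-04) and changed by 0.00 ± 0.12 in the wild type (adjusted p = 0.982), but the difference of those responses, 0.69 ± 0.16, did not pass (adjusted p = 0.505). Col6a1 rose by 0.39 ± 0.13 in the knockout (adjusted p = 0.0414). Postn rose in the wild type by 0.55 ± 0.11 at 10 h (adjusted p = 0.00226) and 0.28 ± 0.11 at 24 h (adjusted p = 0.0485), and fell in the knockout at 24 h by -0.38 ± 0.11 (adjusted p = 0.0145). Cald1 rose in the wild type at 24 h by 0.58 ± 0.12 (adjusted p = 0.00252) and changed by 0.04 ± 0.12 in the knockout (adjusted p = 0.828). For Postn and Cald1 the differences of the 24 h responses were -0.67 ± 0.15 (adjusted p = 0.0884) and -0.55 ± 0.17 (adjusted p = 0.159).

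The test of whether the 24 h response differed between genotypes called 3 of the 21 genes lower and 0 higher (background 0.200% lower and 0.0951% higher). They were Ctgf (-1.04 ± 0.14, limma, adjusted p = 0.0154), Cyr61 (-0.92 ± 0.13, adjusted p = 0.0203) and Fbln2 (-0.80 ± 0.14, adjusted p = 0.0471). These calls depended on the scale. With a pseudocount of 0.1, in place of 1, the test called 0 of the genes. As a ratio of mean FPKM, knockout over wild type, Ctgf had 4.60 untreated and 3.97 after 24 h, Cyr61 had 4.70 and 4.77, and Fbln2 had 3.77 and 3.53. The count was also 10 without wild-type 0 h replicate 1, 1 without wild-type 0 h replicate 2 or knockout 0 h replicate 1, and 0 without knockout 0 h replicate 2 or either knockout 24 h library. At 10 h limma called 0 of the 21 (background 0.0571% higher and 0.0381% lower). Of the 21, 5 had an unadjusted p under 0.05, as did 428 of all 10510 tested genes.

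In TAM 1 library has to be described before the genotypes. Wild-type library 8 was the highest of the 8 libraries for 30 of the 36 genes, as it was for 28.1% of all genes above 0 and 22.5% of tested genes. Its median ratio to the median of the other 3 wild-type libraries was 10.8, over the 35 genes for which that median was above 0, and it was at least 3 for 31 of them, compared with 2.75% of tested genes. The 35 include genes under the TAM filter, which the tested genes do not, so that comparison is not like for like. Only Dcn, Thbs1, Tnc, Loxl2, Thy1 and Tagln had their highest value in another library. The 14 further mesenchymal genes summed to 99.3 FPKM in library 8 against 13.2 to 16.4 FPKM in the other wild-type libraries, and to 6.91 to 16.9 FPKM in the knockout libraries. Its endothelial sum of 5.43 FPKM was the lowest of the 8, and its macrophage marker sum of 8216 FPKM was the highest. The melanocyte genes Dct and Mlana were listed at 0 in it. What set this library apart was not tested, and the TAM differences and counts are therefore given with and without it.

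**Figure D4:**
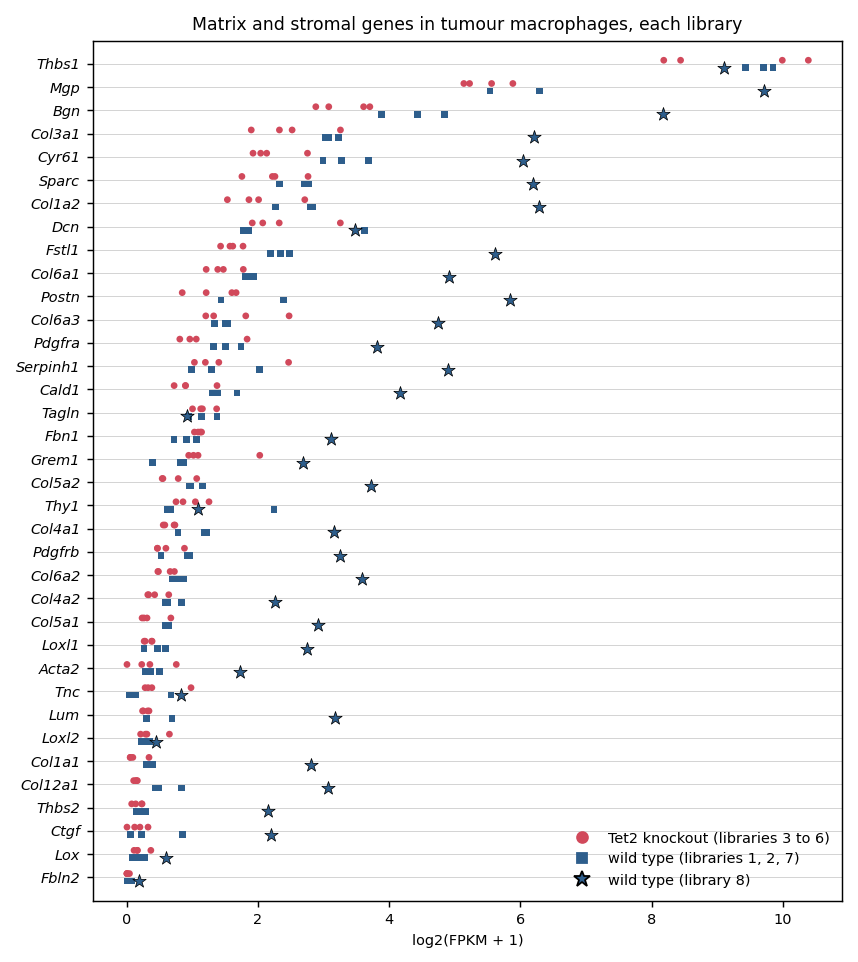
Value of log2(FPKM + 1) for each of the 36 genes in each TAM library, with 4 knockout libraries (circles, upper) and 4 wild-type libraries (squares, lower, with library 8 as a star), ordered by the median over libraries. The star lies to the right of the other 7 libraries for 30 genes, and the knockout circles mostly lie among or left of the wild-type squares.

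With all 8 libraries, limma called 0 of the 19 tested genes in either direction (background 0.0505% higher and 0.0505% lower). Of the 19, 2 had an unadjusted p under 0.05, as did 1676 of all 9897 tested genes. Without library 8 it again called 0 of the 19, and 11 of all 9897 tested genes higher and 12 lower. An unadjusted p under 0.05 was then reached by 6 of the 19 and 1525 of the 9897. Library 8 widened the wild-type spread in the first fit, and a p above the threshold does not show that the genotypes were alike. Knockout and wild-type levels overlapped for 30 of the 36 genes. For the other 6, Col4a1, Col6a1, Col12a1, Bgn, Fstl1 and Cyr61, all knockout libraries were below all wild-type libraries, as for 4.00% of all genes, and 0 genes were the other way (background 5.74%). Without library 8 the same 6 were below (background 5.16%), and 1 gene, Grem1, was above (background 7.80%). Sums of cell type markers differed beside them. The 9 macrophage markers summed to 3207 to 5564 FPKM in the knockout libraries against 6156 to 8216 FPKM in the wild-type ones, and the 8 endothelial genes to 20.8 to 50.5 FPKM in knockout against 5.43 to 19.4 FPKM in wild type. Neither sum overlapped between the genotypes, but limma called 0 of the 9 macrophage genes and 0 of the 2 tested endothelial genes. The macrophage genes had a median difference of -0.14 and went both ways, with Mrc1 at -1.83 ± 0.65 and Fcgr1 at 0.64 ± 0.25. Lyz2, the LysM gene and 1 of the 9, was at -1.27 ± 0.39 (limma, adjusted p = 0.189). Only the knockout TAM carried LysM Cre, and the part of that allele in the Lyz2 level and in the sum was not tested. Of the 8 endothelial genes, 6 were listed at 0 in knockout library 5 and 5 in knockout library 6. The part of these cell types in the results was not tested.

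Mgp had 36.4, 58.1, 46.2 and 34.2 FPKM in knockout TAM libraries 3 to 6 against 77.6, 45.4, 77.1 and 836 FPKM in wild-type libraries 1, 2, 7 and 8. The groups overlapped through wild-type library 2, and the difference was -1.51 ± 0.80 (limma, adjusted p = 0.364) with all libraries and -0.59 ± 0.25 (adjusted p = 0.327) without library 8. Bgn, the gene of the proteoglycan biglycan, had 6.36, 11.2, 12.03 and 7.44 FPKM in knockout TAM against 27.8, 13.7, 20.6 and 288 FPKM in wild type. Every knockout value was lower, and the difference was -2.02 ± 0.83 (adjusted p = 0.272) and -1.07 ± 0.28 (adjusted p = 0.166) without library 8. Cyr61 had 3.11, 5.74, 2.79 and 3.38 FPKM in knockout TAM against 11.8, 6.94, 8.68 and 64.5 FPKM in wild type. It did not overlap either, at -1.78 ± 0.61 (adjusted p = 0.218) and -1.10 ± 0.24 (adjusted p = 0.114) without library 8.

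Fstl1, without library 8, had the lowest adjusted p of the tested genes. Its levels were 1.69, 2.06, 2.41 and 1.97 FPKM in knockout TAM against 4.58, 3.55, 4.05 and 47.8 FPKM in wild type. The knockout libraries were lower throughout, and the difference was -1.56 ± 0.70 (limma, adjusted p = 0.301) with all libraries and -0.74 ± 0.14 (adjusted p = 0.0848) without library 8. Col1a2 had 1.89, 3.02, 5.55 and 2.63 FPKM in knockout TAM against 6.12, 3.79, 5.97 and 77.2 FPKM in wild type. Knockout library 5 reached into the wild-type range, and the difference was -1.52 ± 0.81 (adjusted p = 0.363), or -0.60 ± 0.28 (adjusted p = 0.362) without library 8. Sparc had 2.37, 3.65, 5.78 and 3.78 FPKM in knockout TAM against 5.79, 4.02, 5.52 and 72.1 FPKM in wild type, with library 5 again inside the wild-type range. Its difference was -1.25 ± 0.78 (limma, adjusted p = 0.426), or -0.35 ± 0.24 (adjusted p = 0.514) without library 8.

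Serpinh1 changed sign with the library. It had 1.04, 1.29, 4.52 and 1.64 FPKM in knockout TAM against 1.45, 0.975, 3.06 and 28.8 FPKM in wild type. The groups overlapped widely, and the difference was -0.77 ± 0.80 (limma, adjusted p = 0.634) with all libraries and 0.09 ± 0.39 (adjusted p = 0.927) without library 8. Thbs1 was by far the most abundant of the 36 genes in 7 of the 8 TAM libraries, with 1342, 1019, 290.3 and 347 FPKM in knockout against 689.7, 924, 836 and 549.9 FPKM in wild type. Knockout libraries 3 and 4 were the highest of the 8 and libraries 5 and 6 the lowest, so that the spread within the knockout exceeded the difference of -0.27 ± 0.50 (adjusted p = 0.804), which was -0.41 ± 0.55 (adjusted p = 0.743) without library 8. In library 8 Mgp exceeded it.

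Some genes that differed in BMDM were low in TAM. Lox, at 2.36 to 6.91 FPKM in knockout BMDM, was at 0.0775 to 0.287 FPKM in knockout TAM and 0.0557 to 0.512 FPKM in wild-type TAM. Fbln2 was listed at 0 in 5 of the 8 TAM libraries and never exceeded 0.136 FPKM. The libraries of the 2 cell sources were made and scaled separately, so these levels are set side by side and were not compared. Col1a2 was 21.2 to 73.7 times Col1a1 in knockout TAM and 12.8 to 27.4 times in wild-type TAM. Col6a1 was 2.80 to 4.50 times Col6a2 in knockout TAM and 2.65 to 4.05 times in wild-type TAM, and 3.25 to 5.52 and 2.65 to 10.7 times in knockout and wild-type BMDM.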

How the data were processed

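RNA was measured in 12 BMDM and 8 TAM libraries; the 4 immunoprecipitation libraries for 5-hydroxymethylcytosine were not analysed here. The authors deposited FPKM for every gene in each library. TopHat, Cuffdiff and the mm9 build were used, per the submitters' processing notes; versions, annotation and any scaling between libraries are not given in the sources used here. The TAM table does not name its unit, which was taken from those notes. FPKM hold no counts, so absolute depth is unknown. Relative depth is the peak of the ratios of values between libraries among genes at 0 in at least 20% of them. For 2 symbols listed more than once the row with the higher mean was used.

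Tests used limma 3.58.1 in R 4.3.3 (empirical Bayes with an intensity trend) on log2(FPKM + 1) of the deposited values. The 12 BMDM libraries were fitted as 6 groups and the 8 TAM libraries as 2, each fit with 6 residual degrees of freedom (prior included, 10.3 and 8.54); 10510 and 9897 genes were tested. The script was tested on simulated data. Tables and figures used matplotlib 3.10.9, pandas 2.3.3 and numpy 2.4.6 under Python 3.11.15. Promoters and their coordinates are from RefSeq, GRCm38.p6. Values in every library are given for the 14 called genes with the largest average genotype difference, and for up to 4 genes in each direction with the largest wild-type change at 24 h; TAM genes and the further genes named were picked for the contrasts they show. The genes and lists were chosen with earlier results of these data known. Of the TGF beta pathway list, 1 gene is not reported here. Alternatives were a pseudocount of 0.1, other filters, median-of-ratios scaling, quantile normalization, fitting only the libraries compared, a replicate block and leaving out each library; no filter together with a pseudocount of 0.1 was chosen after seeing the data.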

Additional observations from a re-analysis of the deposited data

Results flagged for a closer look

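In wild-type TAM, library 8 lay far above the other 3 libraries of its group for 27 of the 36 genes, by Dixon's criterion for a group of 4 (chance flags about 1 in 20 groups, and 7.76% of all tested genes had such a wild-type library). Among the collagens its FPKM values were Col1a1 6.02, Col1a2 77.2, Col3a1 72.7, Col5a1 6.57, Col5a2 12.2, Col4a1 7.90, Col4a2 3.76, Col6a1 29.02, Col6a2 10.96, Col6a3 25.8 and Col12a1 7.39. Among the matrix glycoproteins and proteoglycans they were Fbn1 7.60, Sparc 72.1, Lum 7.99, Bgn 288, Postn 56.4, Mgp 836, Thbs2 3.46 and Fstl1 47.8. Among the processing, regulator and mesenchymal genes they were Serpinh1 28.8, Loxl1 5.68, Grem1 5.44, Cyr61 64.5, Pdgfra 13.01, Pdgfrb 8.54, Acta2 2.31 and Cald1 16.96. In knockout TAM, library 5, the shallowest, lay far above the others for 4 genes, with 0.262 FPKM of Col1a1, 0.590 FPKM of Col5a1, 0.968 FPKM of Tnc and 3.07 FPKM of Grem1, and library 3 did so for Fbln2 at 0.0265 FPKM, the others being listed at 0 (4.18% of all tested genes had such a knockout library).

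The 24 h response to IL4 differed between knockout and wild-type BMDM for Ctgf by -1.04, Cyr61 by -0.92 and Fbln2 by -0.80 on the log2(FPKM + 1) scale (limma, interaction term). These calls depended on the scale and on single libraries, with 0 of the genes called at a pseudocount of 0.1 and 0 to 10 called when 1 library was left out. As ratios of mean FPKM, 24 h over untreated, Ctgf had 0.115 in knockout and 0.133 in wild type, Cyr61 had 0.128 in knockout and 0.127 in wild type, and Fbln2 had 0.151 in knockout and 0.162 in wild type.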

How the results depend on the processing

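Over 145 log2 differences of single genes and their 1800 alternative values, 1635 kept direction and side of the threshold, 159 lost the call, 3 gained it and 3 reversed. The reversed ones were uncalled: Thbs1 in untreated BMDM (-0.08 to 0.03, leaving out 1 library), Thbs1 in TAM (-0.65 to 0.08) and Serpinh1 in TAM (-1.21 to 0.09).

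Only Thbs1 and Tagln reached 1 FPKM in every BMDM library. With that filter 1 of them was called untreated, 2 at 10 h, 2 at 24 h and 1 on average for genotype, 1 at 10 h and 2 at 24 h for IL4 in both genotypes, and 0 for the 24 h interaction, since fewer genes were tested. With no filter, 32 of 36 were called on average and 28 for IL4 at 24 h in the knockout, and 32 on average with no filter and a pseudocount of 0.1. Fitting only the libraries compared called 3 for genotype at 24 h. A pseudocount of 0.1 called 5 for IL4 at 10 h in the knockout. The 24 h interaction had 0 calls with a pseudocount of 0.1, with or without the filter, and with only the libraries compared. The 10 h interaction had 1, Thbs1, with median-of-ratios scaling, quantile normalization or only the libraries compared. The cause was not tested.

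Leaving out 1 library gave, for genotype, 17 to 18 calls untreated, 18 to 20 at 10 h, 8 to 13 at 24 h and 20 to 20 on average. For IL4 at 10 h it gave 5 to 7 in knockout and 2 to 7 in wild type, at 24 h 16 to 17 in knockout and 14 to 16 in wild type, for the interactions 0 to 0 at 10 h and 0 to 10 at 24 h, and in TAM 0 to 0. Where this left a group with 1 library, that library was assumed to vary like the other groups.

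Same-numbered BMDM libraries did not deviate together: of 15 pairs of groups 5 had a correlation of deviations over 0.1 (-0.141 to 0.149). With the replicate number as a block, the genotype calls were 18 untreated, 20 at 10 h, 16 at 24 h and 20 on average, the IL4 calls 8 and 7 at 10 h and 19 and 17 at 24 h in knockout and wild type, and the interaction calls 0 at 10 h and 3 at 24 h. With 2 libraries a group, low genes under about 1 FPKM rest on few fragments, and absolute depth is unknown.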
